A study of Mus musculus with 8 samples.

Results

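BAZ2A, also called TIP5, is the large subunit of the nucleolar remodeling complex NoRC, in which it pairs with the ATPase SMARCA5 (SNF2H) and is known for silencing rRNA genes. Remodelers of the ISWI family are built in this way: a motor subunit, SMARCA5 or SMARCA1 (SNF2L), slides nucleosomes, and a partner that carries domains for reading histones or DNA directs it. The mRNAs of 10 genes for such subunits were followed here: *Baz2a*, its paralog *Baz2b*, *Baz1a*, *Baz1b*, *Smarca5*, *Smarca1*, *Bptf*, *Cecr2*, *Rsf1* and *Chrac1*. They were taken by symbol from the 50902 genes of the RNA-seq table, and all 10 were present with the coordinates of GENCODE vM21 on mm10.

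RNA-seq compared ESC + F/H-BAZ2Ar-WT with ESC + F/H-BAZ2Ar-ΔTAM, with 4 libraries each, to ask how gene expression differs when BAZ2A lacks its RNA-binding TAM domain. Both lines derive from E14, a mouse ESC line, and were cultured in N2B27 medium with LIF and 2i. They carry a Flag- and HA-tagged *Baz2a* transgene that the PiggyBac transposase inserted and that resists the siRNA, wild type in one line and without TAM in the other. Cells of both lines received siRNA-*Baz2a*, so each group had its endogenous transcript targeted, and were collected 3 days later. The methods describe clones grown from single cells and screened by western blot, so each group is its own clonal line, and a difference between the transgenes cannot be told apart from a difference between the clones. The labels do not say that libraries of a group came from separate cultures, so p-values measure the spread between these libraries, which may be technical. No batch is named in the labels.

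The siRNA strand and its site are shown because they locate its exact match in the annotated transcripts. Sites with mismatches were not searched. The strand listed has the sense of the mRNA, so it is not the strand that pairs with the site. The sequence is the study's, the site was read from transcript *Baz2a-201* of GENCODE vM21 (GRCm38, the genome of mm10), and capitals mark the match.
siRNA-*Baz2a*: CUUAACAGCUCCACCAUUA
Site in *Baz2a-201*: CTTAACAGCTCCACCATTA
The 19-base site lies on the plus strand at chr10:128121300-128121318, in exon 16 of 30 and within the coding sequence, where it covers codons 971 to 977. Of 141767 annotated mouse transcripts, 4 contained it without a mismatch, and all 4 belonged to *Baz2a*, which has 8 annotated transcripts. None of the other 9 genes had an exact match. How the transgene was altered at this site is not given in the sources used here.

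The TAM domain binds RNA, and its deletion is the designed difference between the lines. The ΔTAM construct lacks residues 506 to 559, which is 54 residues or 162 bases. The numbering of the constructs and that of *Baz2a-201* (1887 residues) differ: the tryptophan-tyrosine pair of TAM, numbered 551 and 552 in the constructs, stands at 568 and 569 in the translated transcript, 17 residues further on. Only codons 523 to 559 of *Baz2a-201* are inside the deletion under both numberings, and these 37 codons are shown in lower case.
TAM codons of *Baz2a-201*: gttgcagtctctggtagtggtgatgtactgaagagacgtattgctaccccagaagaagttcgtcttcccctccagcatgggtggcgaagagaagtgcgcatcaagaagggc
These 111 bases come from exons 7, 8 and 9, in pieces of 19, 61 and 31 bases within chr10:128114765-128116091 on the plus strand. They end 1233 bases before the siRNA site in the transcript. The deposited values count reads per gene, so reads over this stretch could not be separated from the rest of *Baz2a*, nor transgene reads from endogenous ones.

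The deposited unit is RPKM, reads per kilobase per M reads (M for mega), and here the kilobases are those of the whole gene span with introns. Between 7.26 M and 7.69 M gene reads were recovered from each BAZ2Ar-WT library and between 6.56 M and 8.66 M from each BAZ2Ar-ΔTAM library. These were 14.8% to 15.0% of the library totals implied by the RPKM values, and the cause of this share was not tested. All 8 ESC marker genes were present, with a summed level of 7329 to 7376 reads per M gene reads in BAZ2Ar-WT and 6406 to 6750 in BAZ2Ar-ΔTAM, and 4 of the 8 were called lower on RPKM by limma, where 15.9% of all genes tested were. The 3 markers of neuroectoderm summed to 28.9 to 36.9 and 15.4 to 17.5 reads per M gene reads in the same groups, those of mesoderm (3 genes) to 44.7 to 49.2 and 34.5 to 43.6, those of primitive endoderm (4 genes) to 6.15 to 7.17 and 7.27 to 8.84, and those of fibroblasts (4 genes, with *Dcn* at 0) to 0.911 to 1.79 and 1.27 to 2.51. On RPKM, 1 neuroectoderm marker was tested and called lower (*Nes*, log2 fold change -0.75), 1 of 2 mesoderm markers tested was called lower, and none of primitive endoderm or fibroblasts reached the filter. The part of these markers in the results was not tested. In such bulk samples, fewer cells of a type and less RNA per cell cannot be told apart.

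Differences were tested by limma on log2(RPKM + 0.1) for the 9000 genes whose mean reached 0.1 RPKM, and beside this by limma voom on the recovered reads of the 12657 genes that averaged 10 reads or more. In the RPKM fit 7 of the 10 genes were tested. Of these, 4 were called higher in BAZ2Ar-ΔTAM (*Baz2a*, *Baz1b*, *Bptf* and *Cecr2*), where 19.9% of all genes tested were, and 0 were called lower, where 15.9% of all genes tested were. With no filter, or after quantile normalization, *Baz2a* and *Cecr2* were the 2 genes still called higher on RPKM. By an unadjusted p under 0.05 the RPKM fit of limma had 1 gene lower, *Chrac1*. The other 3 genes, *Baz2b*, *Baz1a* and *Smarca1*, span 310, 121 and 83.6 kb of mostly intron and were under the RPKM filter. On reads all 10 were tested: the same 4 genes were called higher, against a background of 21.9%, and *Baz2b* was called lower, against a background of 21.9%. Only *Baz2a* passed the study's thresholds of an absolute log2 fold change of 0.58 and p under 0.05, as did 3.79% of all genes tested in the RPKM fit. The thresholds were applied here to log2(RPKM + 0.1), so this share is not comparable with the study's own count. For 5 of the 10 genes the libraries of the groups did not overlap in RPKM, as for 37.8% of the 12657 genes in the reads fit. The median log2 fold change was 0.10 over the 7 genes and 0.01 over all 9000, and on reads 0.12 over the 10 genes and -0.0026 over all 12657.

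**Figure D1:**
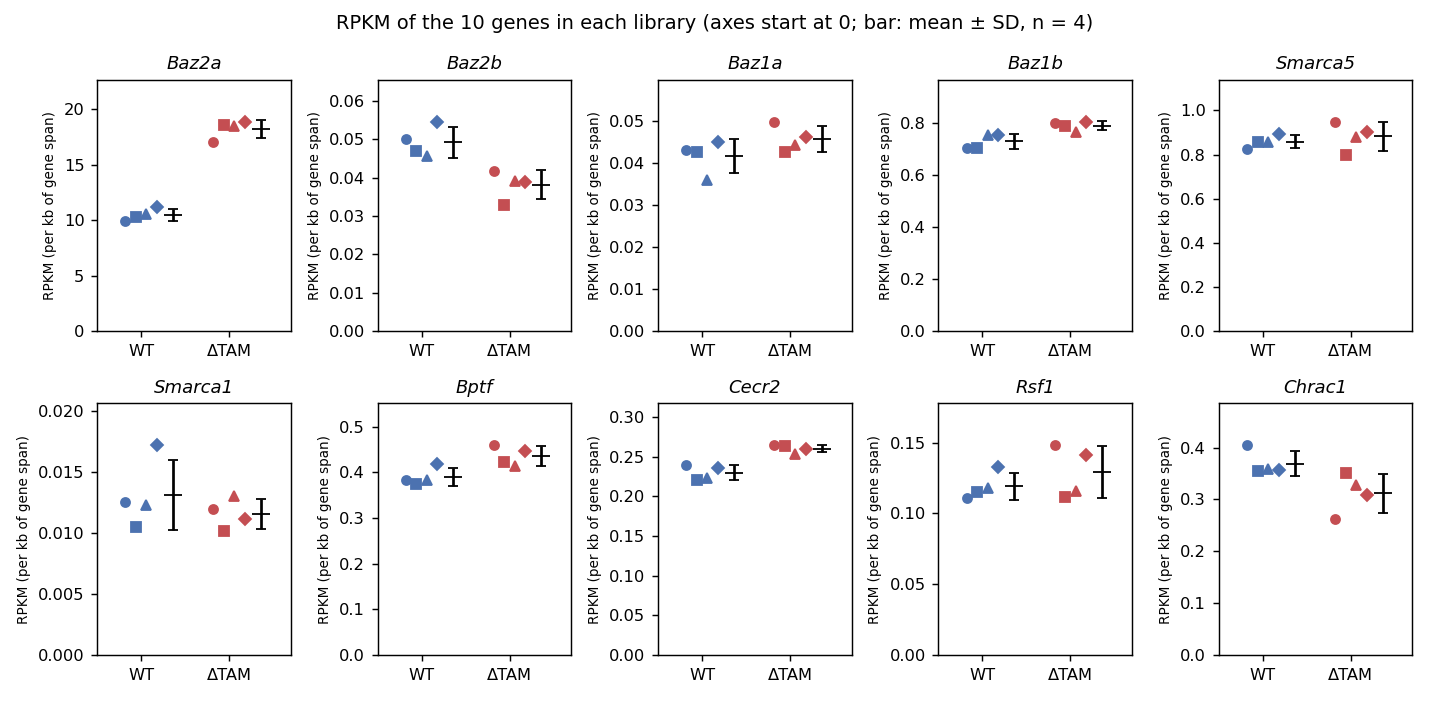
RPKM per kilobase of gene span of the 10 genes in each library, with BAZ2Ar-WT in blue and BAZ2Ar-ΔTAM in red, marker shapes for replicates 1 to 4 and bars for mean ± SD (n = 4). Each panel has its own axis from 0. *Baz2a* separates the groups widely, while for *Smarca5*, *Smarca1*, *Baz1a*, *Bptf* and *Rsf1* the groups overlap.

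*Baz2a* (ENSMUSG00000040054.16, chromosome 10, 128091577 to 128129303, plus strand) was by far the most abundant of the 10 mRNAs in both lines, and it was higher in BAZ2Ar-ΔTAM. In reads per kilobase of exon per M gene reads, its level was 235, 242, 249 and 266 in BAZ2Ar-WT replicates 1 to 4 and 405, 436, 435 and 445 in BAZ2Ar-ΔTAM replicates 1 to 4. The lowest BAZ2Ar-ΔTAM library lay far above the highest BAZ2Ar-WT library. The means were 248 ± 13.1 and 430 ± 17.7 (SD, n = 4 each), a rise of 73.6%. The log2 fold change was 0.79 on RPKM (95% interval 0.69 to 0.90, adjusted p = 3.4e-05 from limma over all genes tested) and 0.80 on reads (standard error 0.033, adjusted p = 1.2e-14 from limma voom). *Baz2a* ranked above 99.3% of the 12462 genes that had at least 10 mean reads and an exon length. These values describe the sum of transgene and remaining endogenous mRNA, so the 2 sources cannot be told apart. By western blot the paper reports similar BAZ2A in both lines, which is a measure of protein and not of mRNA. Exon length was the union of annotated exons (10.7 kb for *Baz2a*), and which exons or UTRs the transgene holds was not given in the sources used here.

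Genes around *Baz2a* were examined because they lie at the endogenous locus, while the insertion sites of the transgene are not given in the sources used here. Within 100 kb of *Baz2a* lie 12 other entries with reads, of which 9 were tested on RPKM, with 2 called higher, beside a background of 19.9%, and 2 lower, beside a background of 15.9%, so the counts were near the background. *Rbms2*, which encodes an RNA-binding protein and starts 2.25 kb beyond the end of *Baz2a*, rose by 0.16 on RPKM (standard error 0.038, adjusted p = 0.0128 from limma) and by 0.22 on reads (adjusted p = 9.1e-04 from limma voom). *Atp5b*, for the beta subunit of ATP synthase, ends 1.19 kb before *Baz2a* and had a log2 fold change of -0.09 on RPKM (adjusted p = 0.0532 from limma), which on its 16213 to 21084 reads reached an adjusted p of 0.00587. *Prim1*, a primase subunit, fell by 0.11 on RPKM (adjusted p = 0.0319 from limma). *Spryd4* fell by 0.15 on RPKM (adjusted p = 0.0116 from limma), with an adjusted p of 0.068 on reads from limma voom. The differences of *Naca* (0.04), *Ptges3* (-0.08) and *Gls2* (-0.00025) on RPKM did not pass the test. The small RNA entries *Snord59a*, called higher with a log2 fold change of 1.38, and *Mir677* rested on 1 to 10 and 1 to 9 reads, and the highest read numbers of *Hsd17b6*, *AC131120.1* and *Mip* were 1, 2 and 10. None of the 7 neighbours tested on reads came near the *Baz2a* difference in size.

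**Figure D2:**
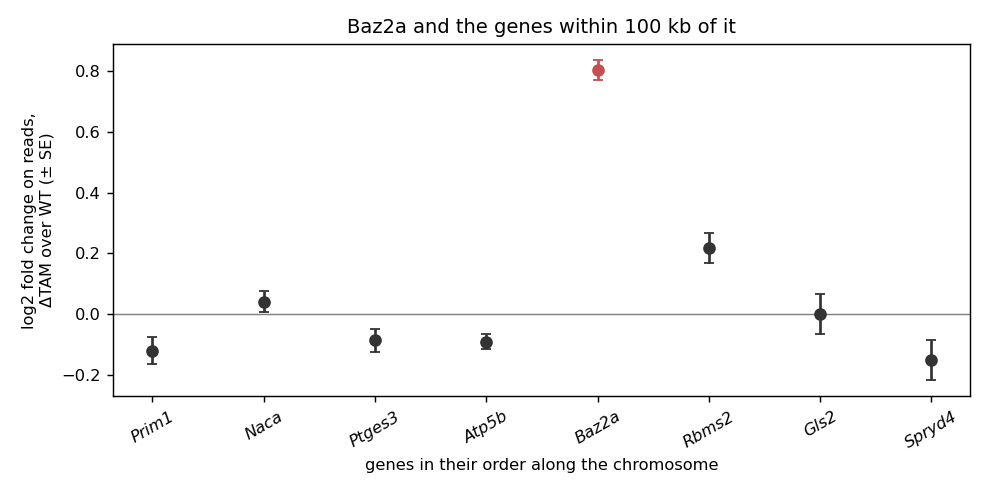
Log2 fold change on reads (BAZ2Ar-ΔTAM over BAZ2Ar-WT, limma voom, ± SE) for *Baz2a*, in red, and the 7 genes within 100 kb that averaged 10 reads or more, in their order along the chromosome. *Baz2a* stands at 0.80 and its neighbours between -0.15 and 0.22.

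*Baz2b* (ENSMUSG00000026987.16, chromosome 2, 59899363 to 60209839, minus strand), which encodes the closest paralog of BAZ2A and likewise partners ISWI ATPases, went the other way. From 771, 749, 688 and 874 reads in BAZ2Ar-WT and 584, 447, 647 and 702 reads in BAZ2Ar-ΔTAM, its level per exon kilobase per M gene reads was 5.92, 5.54, 5.39 and 6.49 against 4.95, 3.87, 4.61 and 4.60. All BAZ2Ar-ΔTAM libraries were below all BAZ2Ar-WT libraries in this level, although the gap between the groups (5.39 and 4.95) was smaller than the spread within either. The means were 5.83 ± 0.494 and 4.51 ± 0.456 (SD, n = 4 each), and the level fell by 22.7%. On reads the log2 fold change was -0.36 (95% interval -0.50 to -0.23, adjusted p = 8.8e-05 from limma voom). A two-sided exact permutation test of its RPKM over the libraries gave p = 0.0286, the smallest that 4 against 4 libraries allow. On RPKM *Baz2b* was under the filter, at 0.0492 ± 0.00402 and 0.0381 ± 0.00372 RPKM. With no filter its change on log2(RPKM + 0.1), a scale that shrinks so low a value, was -0.11 (limma adjusted p = 0.074 over 25439 genes), so its call rested on the reads. Entries inside its span held at most 1 read in any library.

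*Baz1a* (ENSMUSG00000035021.13, chromosome 12, 54892989 to 55014348, minus strand) encodes ACF1, the partner of SMARCA5 in ACF and CHRAC, which space nucleosomes into regular arrays. On 212 to 281 reads per BAZ2Ar-WT library and 226 to 325 per BAZ2Ar-ΔTAM library, its level was 4.74 ± 0.457 and 5.19 ± 0.380 per exon kilobase per M gene reads (SD, n = 4 each). The groups overlapped, and the log2 fold change on reads of 0.14 had a 95% interval from -0.02 to 0.30 (adjusted p = 0.162 from limma voom). Without BAZ2Ar-WT replicate 3 it was 0.07.

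*Baz1b* (ENSMUSG00000002748.7, chromosome 5, 135187264 to 135246129, plus strand) encodes WSTF, which forms the WICH complex with SMARCA5 and also phosphorylates the histone variant H2A.X. It had 0.706, 0.704, 0.754 and 0.755 RPKM in BAZ2Ar-WT and 0.802, 0.789, 0.767 and 0.806 RPKM in BAZ2Ar-ΔTAM. The groups did not overlap, but the lowest BAZ2Ar-ΔTAM library was close to the highest BAZ2Ar-WT library. The mean rose by 8.34%, from 0.730 ± 0.0287 to 0.791 ± 0.0174 RPKM (SD, n = 4 each), for a log2 fold change of 0.10 (SE 0.032, limma adjusted p = 0.0376). On reads it was 0.12 (adjusted p = 0.0118 from limma voom). The call on RPKM was lost in 5 of 8 leave-one-out fits, with adjusted p from 0.0345 to 0.0948 from limma, namely without BAZ2Ar-WT replicate 1 or 2 or BAZ2Ar-ΔTAM replicate 1, 2 or 4.

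**Figure D3:**
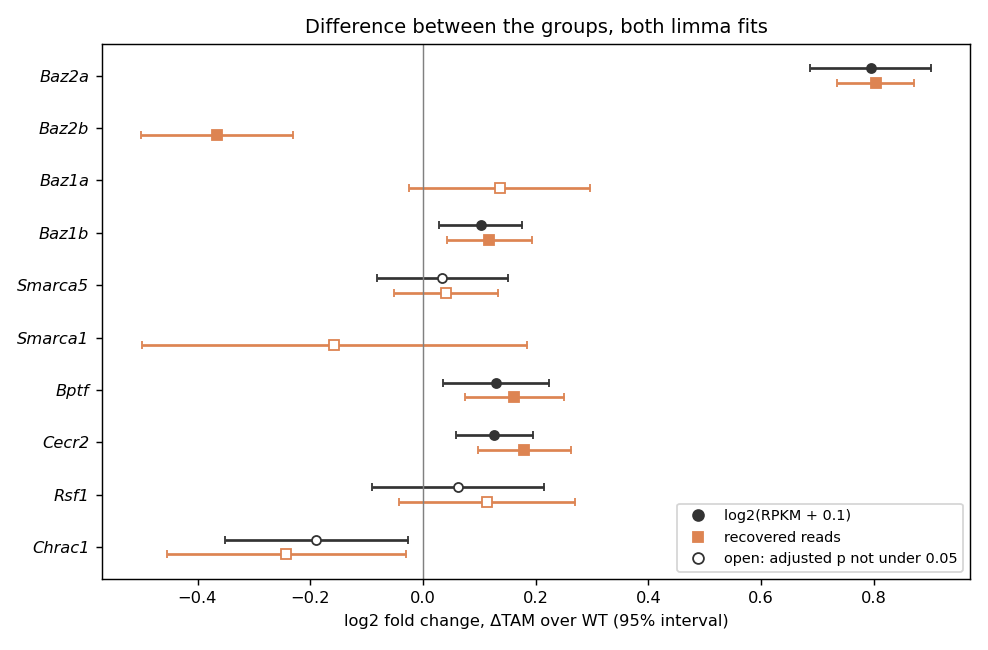
Log2 fold change of BAZ2Ar-ΔTAM over BAZ2Ar-WT with 95% intervals for each gene, from limma on log2(RPKM + 0.1) (black circles) and from limma voom on recovered reads (orange squares), with open symbols where the adjusted p was not under 0.05. *Baz2a* stands at 0.79 and 0.80, *Baz2b* at -0.36 on reads, and the intervals of *Smarca5* span 0.

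*Smarca5* (ENSMUSG00000031715.14, chromosome 8, 80698507 to 80739497, minus strand), for the ATPase that NoRC, ACF, CHRAC, WICH and RSF have in common, did not change detectably. It had 0.824, 0.858, 0.858 and 0.893 RPKM in BAZ2Ar-WT and 0.949, 0.796, 0.880 and 0.904 RPKM in BAZ2Ar-ΔTAM, whose replicates 1 and 2 held the highest and the lowest of all 8 values. On average *Smarca5* reached 0.858 ± 0.0282 RPKM in BAZ2Ar-WT and 0.882 ± 0.0642 RPKM in BAZ2Ar-ΔTAM (SD, n = 4 each). The log2 fold change of 0.03 had a 95% interval from -0.08 to 0.15 (adjusted p = 0.636 from limma), and on reads it was 0.04 with an interval from -0.05 to 0.13. Leave-one-out fits on RPKM gave 0.0014, 0.08 and 0.02 without BAZ2Ar-ΔTAM replicate 1, 2 or 4, and 0.02 and 0.05 without BAZ2Ar-WT replicate 1 or 4, and none passed. The processed pseudogene *Smarca5-ps* on chromosome 4 had 9 to 30 reads per library beside 1430 to 2153 on *Smarca5*, and how reads that fit both were assigned is not stated.

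*Smarca1* (ENSMUSG00000031099.16, chromosome X, 47809368 to 47892974, minus strand), for the second ISWI ATPase, SNF2L, was at the bottom of the 10 genes with 37 to 74 reads per library. Its level was 1.20 ± 0.266 in BAZ2Ar-WT and 1.06 ± 0.113 in BAZ2Ar-ΔTAM per exon kilobase per M gene reads (SD, n = 4 each). The log2 fold change on reads of -0.16 had an interval from -0.50 to 0.18 (adjusted p = 0.465 from limma voom). The value rested on single libraries: without BAZ2Ar-WT replicate 4, which had 74 reads, it was -0.02, without BAZ2Ar-WT replicate 2 it was -0.26, and without BAZ2Ar-ΔTAM replicate 2 it was -0.10. Per exon length, *Smarca1* made up 3.06% to 4.74% of the ISWI ATPase mRNA in BAZ2Ar-WT (3.06% to 3.79% without replicate 4) and 3.09% to 3.69% in BAZ2Ar-ΔTAM, and *Smarca5* the rest.

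*Bptf* (ENSMUSG00000040481.17, chromosome 11, 107033081 to 107132127, minus strand) encodes the large subunit of NURF, a reader of H3K4me3 that works with SMARCA1. Its values were 0.382, 0.375, 0.383 and 0.418 RPKM in BAZ2Ar-WT and 0.459, 0.423, 0.413 and 0.447 RPKM in BAZ2Ar-ΔTAM. BAZ2Ar-WT replicate 4 lay above BAZ2Ar-ΔTAM replicate 3, so the groups overlapped. Its mean went from 0.389 ± 0.0196 to 0.435 ± 0.0213 RPKM (SD, n = 4 each), with a log2 fold change of 0.13 on RPKM (standard error 0.041, adjusted p = 0.0403 from limma) and 0.16 on reads (adjusted p = 0.00355 from limma voom). The RPKM call held in 2 of 8 leave-one-out fits, those without BAZ2Ar-WT replicate 4 and without BAZ2Ar-ΔTAM replicate 3, and the adjusted p ran from 0.0192 to 0.0991 from limma. On reads it held in all 8.

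*Cecr2* (ENSMUSG00000071226.11, chromosome 6, 120666369 to 120771190, plus strand), for the bromodomain subunit of CERF, known for its role in neural tube closure, was 0.240, 0.221, 0.223 and 0.236 RPKM in BAZ2Ar-WT and 0.264, 0.263, 0.254 and 0.259 RPKM in BAZ2Ar-ΔTAM. The groups did not overlap. The mean rose by 13.2%, from 0.230 ± 0.00922 to 0.260 ± 0.00466 RPKM (SD, n = 4 each). On RPKM its log2 fold change was 0.13 (SE 0.029, limma adjusted p = 0.0125) and on reads 0.18 (limma voom adjusted p = 8.6e-04), and it passed in all 8 leave-one-out fits on either scale. Of the rises beside *Baz2a*, that of *Cecr2* was the one with this stability on RPKM.

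*Rsf1* (ENSMUSG00000035623.14, chromosome 7, 97579889 to 97692778, plus strand), for the histone chaperone subunit of RSF, spread widely within BAZ2Ar-ΔTAM, from 0.111 RPKM in replicate 2 to 0.148 RPKM in replicate 1, against a BAZ2Ar-WT range of 0.111 to 0.133 RPKM. Its log2 fold change of 0.06 on RPKM (95% interval -0.09 to 0.21) did not pass the test (adjusted p = 0.497 from limma). It moved with single libraries, to 0.02 without BAZ2Ar-ΔTAM replicate 1, 0.04 without replicate 4 and 0.10 without replicate 2 of that line, and on reads from 0.11 to 0.05, 0.06 and 0.17 in the same order. Antisense and pseudogene entries in its span had at most 5 reads in any library.

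*Chrac1* (ENSMUSG00000068391.8, chromosome 15, 73090392 to 73097554, plus strand) encodes a small histone-fold protein that, with POLE3, joins ACF1 and SMARCA5 in CHRAC. It had 0.404, 0.355, 0.358 and 0.357 RPKM in BAZ2Ar-WT and 0.263, 0.351, 0.327 and 0.308 RPKM in BAZ2Ar-ΔTAM. The groups did not overlap, but BAZ2Ar-ΔTAM replicate 2 came close to 3 of the BAZ2Ar-WT libraries. The log2 fold change was -0.19 on RPKM (95% interval -0.35 to -0.03, adjusted p = 0.0705 from limma) and -0.24 on reads (adjusted p = 0.0598 from limma voom), so the difference did not pass the test. It passed in 1 of 8 leave-one-out fits on either scale. Without BAZ2Ar-ΔTAM replicate 2 it passed, at -0.23 on RPKM (limma adjusted p = 0.0396) and -0.29 on reads (limma voom adjusted p = 0.0392). Without BAZ2Ar-ΔTAM replicate 1 it shrank to -0.13 on RPKM and -0.17 on reads. Without BAZ2Ar-WT replicate 1 it shrank to -0.15 on RPKM and -0.20 on reads. The value rests on 85 to 144 reads per library. It is also uncertain because 219 bases of *Chrac1* exon overlap exons of *Ago2*, a gene on the opposite strand with 3634 to 4692 reads per library, and whether the authors' counting used the strand is not stated.

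Levels were compared between genes only per exon kilobase per M gene reads. In BAZ2Ar-WT the order was *Baz2a* (248), *Smarca5* (30.4), *Baz1b* (21.1), *Bptf* (18.4), *Cecr2* (9.49), *Chrac1* (7.54), *Baz2b* (5.83), *Rsf1* (4.75), *Baz1a* (4.74) and *Smarca1* (1.20). Neighbours in this order did not overlap between their libraries, except *Rsf1* and *Baz1a*. In BAZ2Ar-ΔTAM the first 6 genes kept their places, and *Baz2b* (4.51) came after *Baz1a* (5.19) and *Rsf1* (5.14). There *Chrac1* overlapped *Baz1a*, *Baz1a* overlapped *Rsf1* and *Rsf1* overlapped *Baz2b*, and no other neighbours in the order overlapped. In these levels over all 8 libraries, *Smarca5* ranked above 86.2% of genes, *Baz1b* above 79.8%, *Bptf* above 77.4% and *Smarca1* above 13.1%. The *Baz2a* level was 7.98 to 8.36 times that of *Smarca5* in the same library in BAZ2Ar-WT and 12.0 to 15.5 times in BAZ2Ar-ΔTAM.

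**Figure D4:**
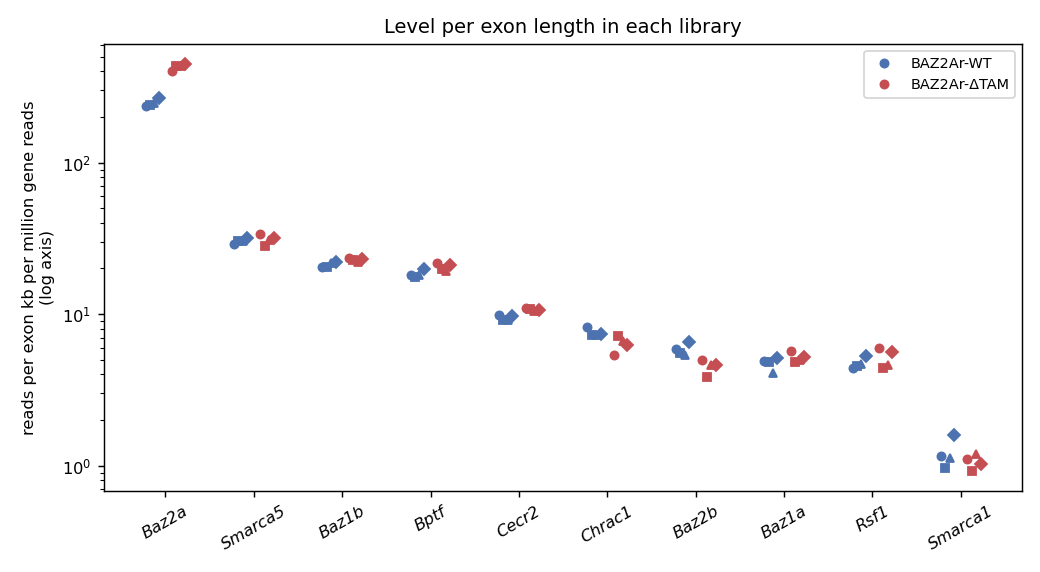
Reads per exon kilobase per M gene reads of each gene in each library, on a log axis, in the order of the mean over all 8 libraries, with BAZ2Ar-WT in blue and BAZ2Ar-ΔTAM in red. *Baz2a* stands apart at 235 to 445, and *Smarca1* lies lowest, at 0.922 to 1.58.

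The ratio of each gene to *Smarca5* in the same library needs no scaling between libraries. The log2 ratio of *Baz2a* RPKM to *Smarca5* RPKM was 3.61 ± 0.03 in BAZ2Ar-WT and 4.37 ± 0.15 in BAZ2Ar-ΔTAM (SD, n = 4 each), a difference of 0.76. That of *Baz2b* was -4.13 ± 0.10 and -4.54 ± 0.05, a difference of -0.41, and that of *Bptf* was -1.14 ± 0.05 and -1.02 ± 0.08, a difference of 0.12. These 3 of the 9 ratios reached p = 0.0286, the smallest that the two-sided exact permutation test allows. Their adjusted p was 0.0857 over the 9 ratios, and no ratio passed after adjustment. With so few libraries a ratio can pass only if several others also reach the smallest p, however far apart its groups lie. The adjusted p therefore cannot decide on any ratio by itself. For *Baz1b* and *Cecr2* the ratios to *Smarca5* differed by 0.08 and 0.14, with adjusted p of 0.294 and 0.206 from the exact test. The remaining ratios differed by -0.28 for *Chrac1*, -0.20 for *Smarca1*, 0.10 for *Baz1a* and 0.07 for *Rsf1*, with adjusted p of at least 0.206 from the exact test. Single libraries moved these 6 differences by over 1.5 times. Without BAZ2Ar-ΔTAM replicate 2 that of *Baz1b* was 0.03 and that of *Cecr2* 0.09, and without BAZ2Ar-ΔTAM replicate 1 that of *Chrac1* was -0.17. Without BAZ2Ar-WT replicate 4 that of *Smarca1* was -0.08, and without BAZ2Ar-WT replicate 3 that of *Baz1a* was 0.03. That of *Rsf1* was 0.04 without BAZ2Ar-ΔTAM replicate 1 or 4 and 0.12 without replicate 3.

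**Figure D5:**
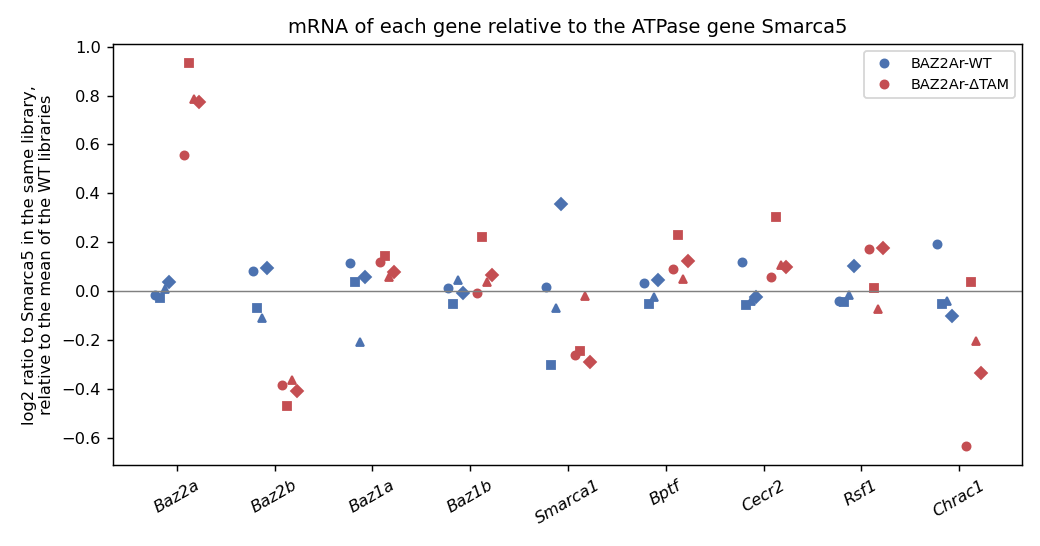
Log2 ratio of each gene's RPKM to that of *Smarca5* in the same library, drawn relative to the mean of the BAZ2Ar-WT libraries (line at 0), with BAZ2Ar-WT in blue and BAZ2Ar-ΔTAM in red. *Baz2a* lies above its BAZ2Ar-WT libraries by 0.76 on average and *Baz2b* below by 0.41, each with no overlap.

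Further genes of these pathways were read from fixed lists, in the RPKM fit, whose background was 19.9% of all genes tested called higher and 15.9% called lower, with a median log2 fold change of 0.01. Of 7 names of ISWI partners outside the 10 genes, 6 were in the table, the seventh being a synonym of *0610010K14Rik*, and 5 were tested, with 1 higher, 1 lower and a median log2 fold change of -0.05. These were the histone-binding paralogs *Rbbp4*, which rose by 0.25 (adjusted p = 0.00508 from limma), and *Rbbp7*, which fell by 0.22 (adjusted p = 2.7e-04 from limma). Both are NURF subunits and belong to other complexes too.

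Of 13 partners and regulators of NoRC, all tested, 5 were called higher, beside a background of 19.9%, and 2 lower, beside a background of 15.9%, with a median of 0.04. *Dnmt3b*, a de novo DNA methyltransferase, rose by 0.54 (0.239 ± 0.0103 to 0.393 ± 0.0178 RPKM, SD, n = 4 each, adjusted p = 6.1e-05 from limma) on log2(RPKM + 0.1), a scale that shrinks the change of so low a value. On reads it rose by 0.72 (adjusted p = 2.8e-10 from limma voom), past an absolute log2 fold change of 0.58. *Dhx9*, an RNA helicase, rose by 0.45 (2.22 ± 0.0565 to 3.06 ± 0.0449 RPKM, SD, n = 4 each, adjusted p = 3.2e-05 from limma).

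Of 6 partners of WSTF in the B-WICH complex, 5 were tested, with 2 higher and 1 lower and a median of 0.07. *Dek*, a chromatin protein, rose by 0.27 (adjusted p = 0.014 from limma). *Myo1c*, which encodes nuclear myosin, fell by 0.10 (adjusted p = 0.0388 from limma), and on reads its adjusted p was 0.0564 from limma voom. Of 25 other SNF2-family ATPases outside ISWI and BAF, 18 were tested, with 3 higher, 1 lower and a median of 0.02. *Ercc6l*, a translocase of mitotic DNA bridges, rose by 0.26 (adjusted p = 0.00748 from limma), and *Hltf*, a translocase of stalled forks, fell by 0.19 (adjusted p = 0.0336 from limma). As log2(RPKM + 0.1) shrinks low values, the log2 fold change of *Hltf* was larger on reads, at -0.34 (adjusted p = 9.5e-04 from limma voom).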

How the data were processed

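PolyA-enriched RNA of 8 libraries was sequenced with a stranded kit, single-end per the labels. The authors filtered out rRNA reads (SortMeRNA), trimmed the rest (Trimmomatic), aligned them to mm10 (STAR) and, by a custom pipeline, turned the exon coverage of each gene into the deposited RPKM of each library, without pooling. The gene annotation and the use of strand are not given in the sources used here.

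Of 51288 entries, 386 that repeat a symbol were set aside, which left 50902 genes. RPKM times gene span came in whole multiples of a step (99.6% of values within 0.05 of a whole number), taken as 1 read. Exon lengths came from GENCODE vM21.

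Fits used limma 3.58.1 in R 4.3.3 (lmFit, eBayes with trend, no covariates) on log2(RPKM + 0.1), with Benjamini-Hochberg adjustment over all genes tested, and limma voom with median-ratio scaling on recovered reads, both tested on simulated data. Alternatives changed the pseudocount, filter, scaling, eBayes options, replicate block and libraries used. The 10 genes and the lists were chosen with earlier results of these data known. Named are the 10 genes, the 2 called genes of each pathway list with the largest change, the neighbours of *Baz2a* with reads and entries that overlap the 10 genes or are their pseudogenes. *Chd5*, named in the closing section, falls outside this rule and was chosen after its value was seen. The markers *Nes* and *Dcn* and the list entry *0610010K14Rik* also fall outside this rule.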

Additional observations from a re-analysis of the deposited data

Results flagged for a closer look

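The *Chrac1* value of 0.404 RPKM in BAZ2Ar-WT replicate 1 stood apart from the other 3 BAZ2Ar-WT libraries, the nearest of which had 0.358 RPKM. The gap took 0.936 of the range of the group, above Dixon's 95% critical value for 4 samples. It was the only such value among 20 groups examined (10 genes in 2 groups), and chance gives about 1 in 20. The library held 144 *Chrac1* reads.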

How the results depend on the processing

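The log2 fold change of *Baz2a* ran from 0.75 to 0.83 over its 18 alternatives and passed in each. No result for the 10 genes changed direction. The 4 genes called higher on RPKM became 2 (*Baz2a* and *Cecr2*) with no filter and with quantile normalization, 1 with a mean of at least 1 RPKM, which left only *Baz2a* tested, and 2 to 4 in the leave-one-out fits. The genes called lower on RPKM numbered 0, 1 (*Baz2b*) with voom on recovered reads, and 0 to 1 in the leave-one-out fits. On reads those called lower were 1 to 2 in the leave-one-out fits, the second being *Chrac1* without BAZ2Ar-ΔTAM replicate 2, and *Baz1b* was lost without BAZ2Ar-WT replicate 1 or 2 (adjusted p 0.0548 and 0.0573 from limma voom). Same-numbered libraries correlated by 0.02 to 0.06 in their deviations, and differently numbered ones by -0.06 to 0.03. Not every library correlated best with its own number. Correlations this weak cannot decide whether the numbers pair the libraries. With the replicate block 3 genes were called higher on RPKM, without *Baz1b*, and the calls on reads did not change. The adjusted p of the *Baz2a*, *Baz2b* and *Bptf* ratios to *Smarca5* was 0.281 under the replicate block, whose exact test cannot go below p = 0.125. The cause was not tested where none is given. The fewest reads lay behind *Smarca1* (37 to 74 per library) and *Chrac1* (85 to 144).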

Other observations

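Among the other SNF2-family ATPases, *Chd5*, a CHD remodeler known from neurons, was under the RPKM filter but had the lowest log2 fold change of its list on reads, -1.12 (standard error 0.18, adjusted p = 2.2e-05 from limma voom), on 17 to 62 reads per library. It was chosen after its value was seen. On reads the list of 25 had 5 genes called higher and 6 lower, beside backgrounds of 21.9% of all genes tested in each direction, so the counts of the list were near the background.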
